A study of Arabidopsis thaliana with 12 samples.

Results

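The 4 genes described here encode plastid enzymes of branched-chain and sulfur amino acid synthesis: AT3G23940, dihydroxy-acid dehydratase (DHAD); AT3G58610, ketol-acid reductoisomerase (KARI); CBL (AT3G57050), cystathionine beta-lyase; and APS4 (AT5G43780), an ATP sulfurylase. They were taken by name, as the genes of these pathways that have an array probe listing that gene alone. They account for 4 of the 692 probes with 1 gene, on an array of 3439 probes, and no probe lists any of them beside another gene. Total RNA came from Arabidopsis thaliana, wild type, ecotype Landsberg, in 6 samples from plants given 50 µM paraquat and 6 samples from plants given water. Paraquat is a herbicide that accepts electrons at photosystem I of illuminated chloroplasts and reduces oxygen to superoxide. Plants of both groups had spent 12 h in darkness and were collected after 30 min of renewed light. The labels name neither a tissue nor an age. None of 14 leaf, root and flower marker genes looked for was listed for any probe, so the tissue was not checked. The labels do not say whether the sample numbers 1 to 6 stand for separate plants or for repeated readings, so the p-values below reflect the spread among these samples alone and that spread may be technical.

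Valine, leucine and isoleucine are made in plastids by a shared chain of enzymes. Acetohydroxyacid synthase makes the first acids of the chain, KARI rearranges and reduces them with NADPH, and DHAD, which carries an iron-sulfur cluster, dehydrates the product to the oxo acids from which valine and isoleucine arise. Sulfur enters amino acids by another plastid route: ATP sulfurylase activates sulfate, reduction to sulfide leads to cysteine, and CBL splits cystathionine, which carries the sulfur of cysteine, into homocysteine, the precursor of methionine. The comparison of paraquat with water asks how the transcripts of these steps differed early in the light period when the herbicide was present.

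Among the 4 genes DHAD stood alone in passing the test, and it was higher under paraquat. KARI, the enzyme of the step just before it, did not pass and had overlapping groups. CBL was lower in each of the 6 numbered pairs of samples but did not pass, and its values were spread widely within both groups. APS4 did not pass either. The test was limma on quantile-normalized log2 intensities with Benjamini-Hochberg adjustment over all 3439 probes and a threshold of 0.05. By this rule 52.5% of all probes differed between the groups: 24% of all probes were higher and 28.5% were lower under paraquat. One call among 4 genes is therefore no more than the array as a whole gives, and the size of the DHAD difference is what the following values describe.

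The deposited intensities of DHAD were 1.91, 2.10, 2.43, 2.32, 2.18 and 2.13 in paraquat samples 1 to 6, against 0.239, 0.325, 0.364, 0.335, 0.365 and 0.394 in water samples 1 to 6. Every paraquat value lay above every water value, with a wide gap between the groups. The means were 2.18 ± 0.178 under paraquat and 0.337 ± 0.054 under water (SD, n = 6 each). In terms of the array as a whole, the probe was brighter than 92.8% to 95.4% of all probes in the paraquat samples and brighter than 21.5% to 42.1% in the water samples, so the signal was bright under paraquat and dim under water. On the quantile-normalized scale DHAD rose by a log2 difference of 2.54 ± 0.13 (SE, n = 6 per group; limma, adjusted p = 1.46e-07), which is 5.81-fold with a 95% interval of 4.78 to 7.06. Groups that do not overlap in this direction were found for 14.6% of all probes. The rise was the 25th largest on the array and the 8th largest among probes with 1 gene. It was found in 6 of 6 numbered pairs, with log2 differences between 2.21 and 2.77, and 24.4% of all probes were higher in every pair. With neighbouring sample numbers averaged, which leaves 3 values per group, DHAD passed as well (limma, adjusted p = 0.00326).

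KARI, in contrast, had deposited intensities of 0.382, 0.408, 0.322, 0.308, 0.316 and 0.277 in paraquat samples 1 to 6, against 0.363, 0.367, 0.377, 0.314, 0.289 and 0.269 in water samples 1 to 6. The groups overlapped over nearly their whole range, and sample 6 was the lowest in both. The means were 0.335 ± 0.050 under paraquat and 0.330 ± 0.045 under water (SD, n = 6 each). The normalized log2 difference was -0.21 ± 0.12 (SE, n = 6 per group; limma, adjusted p = 0.148), a 0.863-fold level under paraquat with a 95% interval of 0.724 to 1.03. Its sign was negative in 6 of 6 numbered pairs, by log2 differences of -0.36 to -0.09, a pattern shown by 29% of all probes. With the sample number as a block it passed (limma, adjusted p = 0.0452), and by the same fit 30.6% of all probes were lower. It did not pass with neighbouring numbers averaged (adjusted p = 0.382), nor with these averages and their pair as a block (adjusted p = 0.24). With the values as deposited the difference was 0.024 (adjusted p = 0.892). With median centring it was -0.32 (adjusted p = 0.0406), where 32.4% of all probes were lower, so neither its sign nor its call held across scalings.

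**Figure D1:**
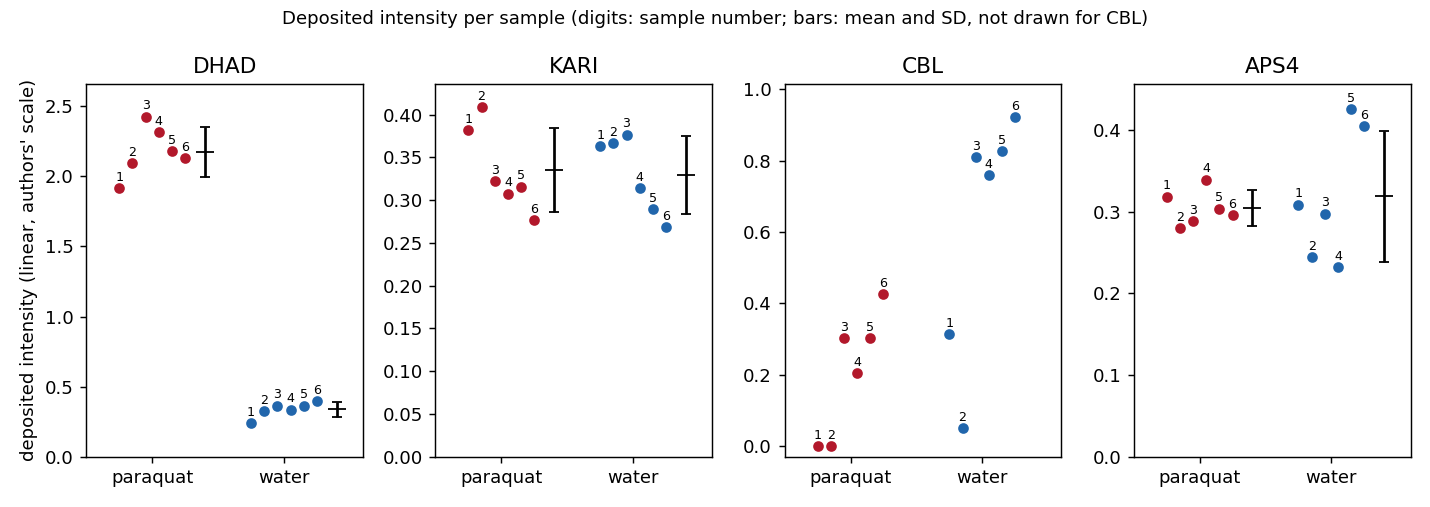
Deposited intensity (linear, in the authors' own scale) of DHAD, KARI, CBL and APS4 in each sample, paraquat in red and water in blue, with the sample number above each point and the mean and SD beside it for the 3 genes without zeros. The 6 DHAD values under paraquat lie between 1.91 and 2.43 and the water values between 0.239 and 0.394, while the KARI and APS4 groups overlap and CBL is listed at 0 in paraquat samples 1 and 2.

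The response of DHAD was set against that of KARI as the log2 value of DHAD minus that of KARI within each sample. That quantity was 2.77 ± 0.27 under paraquat and 0.02 ± 0.44 under water (SD, n = 6 each), and its lowest paraquat value, 2.43, lay above its highest water value, 0.60. The difference between the groups was 2.75 on the log2 scale, so the fold change of DHAD was 6.73 times that of KARI. An exact permutation test over samples, two-sided, gave p = 0.00216, the smallest it can give. The adjusted p of this test over the 2 such differences tested was 0.00433. On the same scale DHAD alone lay at 0.85 or above under paraquat and at -1.16 or below under water. KARI stayed between -1.93 and -1.24 in all samples. The small p therefore follows from the separation of DHAD described above and is no further evidence. Taken alone, 14.6% of all probes had groups that did not overlap on the higher side, and 24.4% were higher in every numbered pair. How often the difference between 2 other probes separates the groups was not counted. The difference between DHAD and KARI pointed the same way in 6 of 6 numbered pairs. Scaling of whole samples by a common factor cancels in such a difference, and it was 2.68 with the values as deposited. If neighbouring sample numbers are repeated readings, 3 averaged samples per group remain, for which the exact test cannot go below p = 0.1; it gave p = 0.1.

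CBL had deposited intensities of 0, 0, 0.301, 0.203, 0.302 and 0.425 in paraquat samples 1 to 6, against 0.314, 0.0490, 0.810, 0.760, 0.826 and 0.921 in water samples 1 to 6. In samples 3 to 6 every paraquat value lay below every water value, whereas samples 1 and 2 were the lowest of their group in both treatments. The 2 zeros are listed values that may be failed estimates, and the water value of sample 2 lies under 0.118, the 5th percentile of all intensities above 0. The normalized log2 difference over all samples was -3.57 ± 1.82 (SE, n = 6 per group; limma, adjusted p = 0.121), with a 95% interval of -7.55 to 0.40. That size depends on the value given to the zeros: it was -1.37 with a pseudocount of 0.1 (adjusted p = 0.0627) and -0.80 with zeros treated as missing, which leaves 4 paraquat samples (adjusted p = 0.371). CBL was lower in 6 of 6 numbered pairs, by log2 differences of -1.35 to -2.04 in pairs 3 to 6; 29% of all probes were lower in all 6 pairs. With the sample number as a block it passed (limma, adjusted p = 0.0315), as did 30.6% of all probes on the lower side. It did not pass with neighbouring numbers averaged (adjusted p = 0.326) or with these averages and their pair as a block (adjusted p = 0.127; 0.133 after the centring by position described below).

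Without samples 1 and 2 of both groups, a choice made after the values were seen, the deposited means of CBL were 0.308 ± 0.091 under paraquat and 0.829 ± 0.067 under water (SD, n = 4 each). The log2 difference over these samples was -1.67 ± 0.20 (SE, n = 4 per group; limma, adjusted p = 0.000472), a 0.315-fold level under paraquat with a 95% interval of 0.228 to 0.436. Over the same 8 samples 27.2% of all probes were lower by this rule, and 25.8% had paraquat values that all lay below the water values. Samples 1 and 2 also stood apart across the array: their log2 values correlated with those of samples 3 to 6 at 0.876 to 0.892 under paraquat, where samples 3 to 6 reached at least 0.912 among themselves, and at 0.756 to 0.797 under water, where samples 3 to 6 reached at least 0.841. The part this plays in the CBL values was not tested. DHAD did not turn on these samples, since its log2 difference was 2.51 without them (adjusted p = 3.99e-05).

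APS4 had deposited intensities of 0.319, 0.280, 0.289, 0.339, 0.304 and 0.296 in paraquat samples 1 to 6, against 0.309, 0.244, 0.298, 0.232, 0.425 and 0.405 in water samples 1 to 6. The paraquat values lay within the range of the water values, where samples 5 and 6 stood above the rest. The means were 0.304 ± 0.022 under paraquat and 0.319 ± 0.080 under water (SD, n = 6 each). The normalized log2 difference was -0.24 ± 0.18 (SE, n = 6 per group; limma, adjusted p = 0.307), a 0.849-fold level with a 95% interval of 0.642 to 1.12. It was negative in 5 of 6 numbered pairs and 0.56 in pair 4. APS4 belongs to a family of ATP sulfurylase genes of related sequence, and whether transcripts of its relatives APS1, APS2 and APS3 bind the probe was not tested.

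The response of CBL was set against that of APS4 in the same way as DHAD against KARI. The log2 value of CBL minus that of APS4 was -2.83 ± 4.36 under paraquat and 0.50 ± 1.62 under water (SD, n = 6 each), a difference of -3.34 between the groups (exact permutation test, two-sided, p = 0.126; adjusted p = 0.126 over the 2 differences). Leaving out samples 1 and 2, a choice made after the values were seen, gave -1.42 (exact permutation test, p = 0.0286). That p is the smallest the test allows with 4 against 4, and CBL alone already separated those samples by treatment. With the numbered pairs kept, the exact sign-flip permutation test gave p = 0.0312, the smallest it allows, and leaving out water sample 2 alone gave p = 0.0476 (exact permutation test). It did not pass with a pseudocount of 0.1 (-1.19, p = 0.0801), with zeros as missing (-0.60, p = 0.467) or with zeros set after normalization (-4.90, p = 0.126), by the same exact permutation test. The call therefore changed with the pairing and with whether samples 1 and 2 were kept.

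Fold changes on this array varied periodically along the probe numbers, and the 4 probes fall at different places in the period. It was divided into 24 steps of 12 probe numbers. DHAD lies in a step whose 153 probes had a median log2 difference of 0.44, whereas KARI, CBL and APS4 lie in steps with medians of -0.59, -0.44 and -0.77. DHAD was higher than 151 of the other probes of its step and lower than 1. CBL was lower than 141 of the others in its step and higher than 1. That rank uses the log2 difference of -3.57, which includes the listed zeros of CBL. The CBL difference was -1.37 with a pseudocount of 0.1 and -0.80 with zeros as missing, and its rank was not taken for these. KARI and APS4, which sat near the middle of the whole array, were higher than 72% and 72.4% of the other probes in their steps.

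**Figure D2:**
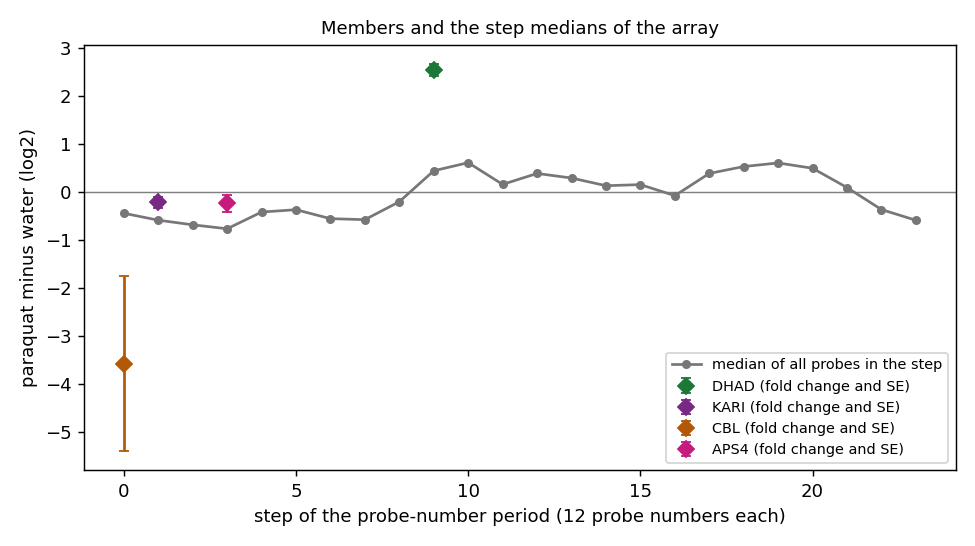
Median log2 difference, paraquat minus water, of all probes in each of 24 steps of the probe-number period (grey), with the log2 difference and SE of the 4 genes at their own steps. DHAD at 2.54 lies above and CBL at -3.57 below the medians of their steps. The size for CBL depends on the value given to its listed zeros. KARI and APS4 lie a little above low medians of -0.59 and -0.77.

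When each sample was centred on its step medians, the log2 difference of DHAD was 2.002 ± 0.134 (SE, n = 6 per group; limma, adjusted p = 6.2e-07). That of KARI turned to 0.33 ± 0.12 (adjusted p = 0.0411) and that of APS4 to 0.45 ± 0.16 (adjusted p = 0.0377), both then past the threshold on the side of higher under paraquat. CBL was at -3.10 ± 1.73 (adjusted p = 0.165). After centring 47.4% of all probes passed, 21.2% of all probes being higher. When neighbouring numbers were averaged as well, with the pair as a block, DHAD passed (adjusted p = 0.0212) and KARI and APS4 did not (adjusted p = 0.179 and 0.171), while 26.9% of all probes passed. An effect of place on the array and an order of genes along it cannot be told apart here, so KARI and APS4 have no settled direction. The difference between DHAD and KARI was 1.68 on the log2 scale after centring (exact permutation test, two-sided, p = 0.00216, the smallest it can give). The fold change of DHAD was then 3.19 times that of KARI. DHAD alone separated the groups after centring too, so the p of this difference repeats the DHAD result.

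**Figure D3:**
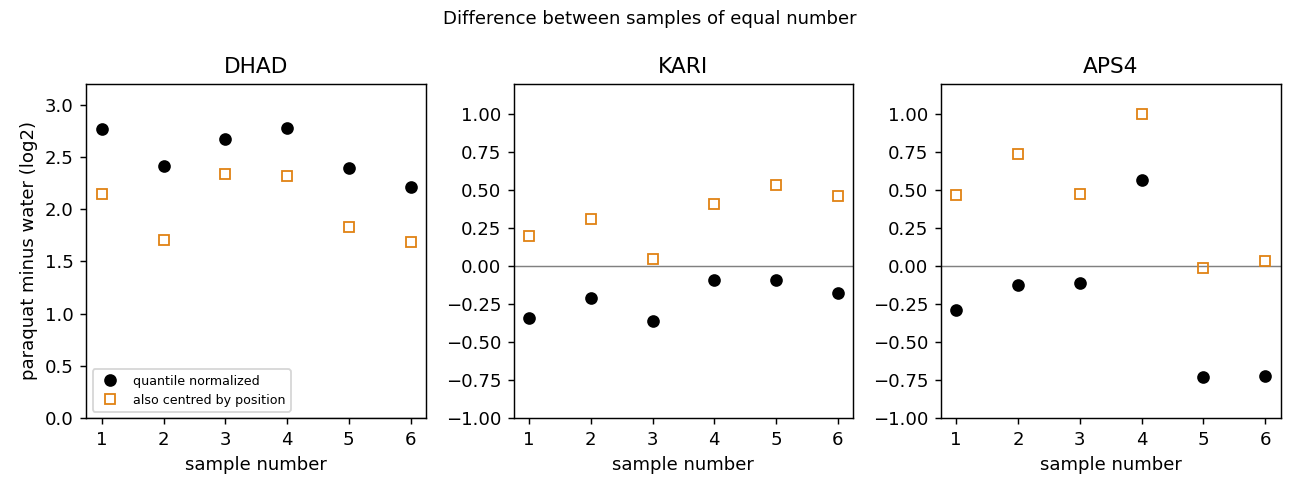
Log2 difference, paraquat minus water, between samples of equal number for DHAD, KARI and APS4, as quantile normalized (filled circles) and after centring by position (open squares). DHAD stays between 1.69 and 2.77 throughout, KARI is negative in all 6 pairs before centring and positive in all 6 after it, and APS4 changes sign in 4 of the 6 pairs.

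The spread of the 4 genes within a group was unequal. For DHAD the SD of normalized log2 values was 0.16 under paraquat and 0.26 under water, and for KARI it was 0.15 under paraquat and 0.22 under water. APS4 had an SD of 0.13 under paraquat and 0.44 under water, where samples 5 and 6 made up most of the spread. Neighbouring numbers were closer to each other than the averaged pairs were for DHAD, KARI and CBL in both groups and for APS4 under water. For DHAD the mean SD was 0.049 within neighbours against 0.175 between them under paraquat, and 0.18 against 0.23 under water. For KARI it was 0.086 against 0.150 under paraquat and 0.11 against 0.22 under water. CBL had 0.23 against 4.95 under paraquat, where its listed zeros enter, and 0.74 against 1.64 under water. APS4 had 0.20 against 0.45 under water. Only for APS4 under paraquat was the order the other way, with 0.114 within neighbours against 0.097 between them. As a description over 12 samples, the deviations of DHAD from its group means ran against those of KARI (Pearson's r -0.58). They ran with those of CBL (r 0.48) and APS4 (r 0.41). KARI ran against CBL (r -0.64) and APS4 (r -0.38), and CBL ran with APS4 (r 0.28). The values for CBL include its listed zeros, which lie far from the rest. These points share arrays and the links between sample numbers.

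The genes whose normalized log2 values were most like DHAD over the 12 samples, among 691 other probes with 1 gene, were AT2G28540 (Pearson's r 0.985), AT5G02830 (r 0.976) and ATATH8 (r 0.974). They rose by log2 differences of 1.91, 1.61 and 1.46, and the likeness is mainly that difference between the groups. In deviations from the group means the most like were AT4G17070, AT1G68430 and AT3G29185, with r of 0.892, 0.890 and 0.863. For KARI they were AT5G27560, AT1G64430 and AT4G21170 over the 12 samples (r 0.888, 0.872 and 0.836) and AT1G02260, AT4G32060 and AT2G27290 in deviations (r 0.913, 0.881 and 0.867). None of the first 3 passed the test between groups (limma, adjusted p = 0.106, 0.151 and 0.0735).

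For CBL the most like were AT2G22890, AT5G42070 and AT2G28790 over the 12 samples (r 0.840, 0.788 and 0.774) and AT1G72540, AT5G42070 and AT1G49850 in deviations (r 0.941, 0.893 and 0.879). Those correlations lean on the low values of CBL in samples 1 and 2. For APS4 they were AT2G25870, AT5G52970 and AT5G59400 over the 12 samples (r 0.882, 0.868 and 0.798) and AT2G19870, AT2G25870 and AT5G52970 in deviations (r 0.872, 0.872 and 0.846). AT5G52970 was listed at 0 in 10 of 12 samples, so its likeness to APS4 rests on 2 values.

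The rest of both pathways could hardly be followed on this array. Of 23 genes listed for branched-chain amino acid synthesis, DHAD and KARI had a probe of their own. Of these 2 genes 1 rose, against 24% of all probes. The list median log2 difference of 1.16 is the midpoint of these very unlike genes. Of 34 genes listed for sulfate assimilation and the synthesis of cysteine and methionine, CBL and APS4 had a probe of their own. Of these 0 passed, against 52.5% of all probes, and so few probes give no result about either list. Their median of -1.91 is the midpoint of -3.57 for CBL, a size that depends on the value given to its zeros, and -0.24 for APS4. The median of all probes was -0.04. No probe lists another gene of either pathway among several, so the other enzymes, among them acetohydroxyacid synthase, threonine deaminase, the branched-chain aminotransferases, APS reductase, sulfite reductase and cystathionine gamma-synthase, were not analysed here; 1877 of the 3439 probes have no gene listed.

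Of 78 genes listed for other amino acid synthesis in the plastid, 3 had a probe of their own. None of them passed (limma), against 52.5% of all probes, and their median log2 difference was 0.08. HISN4 (AT4G26900, AT-HF in RefSeq), an enzyme of histidine synthesis, averaged 0.202 ± 0.117 under paraquat and 0.296 ± 0.142 under water in deposited intensity (SD, n = 6 each; log2 difference -0.51, adjusted p = 0.594). Sample 3 was the lowest in both groups: the log2 difference was -0.18 without paraquat sample 3 (adjusted p = 0.862) and -1.18 without water sample 3 (adjusted p = 0.0382). AT5G10920, the argininosuccinate lyase of arginine synthesis, averaged 0.709 ± 0.135 under paraquat and 0.539 ± 0.174 under water (log2 difference 0.13, adjusted p = 0.658), and after position centring it was at 0.43 (adjusted p = 0.0301). AT3G53580, the diaminopimelate epimerase of lysine synthesis, averaged 0.125 ± 0.089 under paraquat and 0.144 ± 0.118 under water (log2 difference 0.08, adjusted p = 0.965), near the dim end of the array. Another 9 probes list several genes of this list and no other gene. Of these, 3 fell and 6 did not pass, with a median log2 difference of -0.17, against 28.5% of all probes lower. Probes of the same genes had opposite signs for AT3G59890 and AT2G44040 (-1.02 and 0.37) and for AT1G15710 and AT5G34930 (-0.61 and 0.16). The signs were equal for HISN5B and IGPD (-0.17 and -0.51) and for AT5G11880 and AT3G14390 (0.09 and 0.10). After position centring the AT1G15710 probe at -0.61 did not pass (limma, adjusted p = 0.171). A probe of AT5G11880 and AT3G14390 then passed as lower (adjusted p = 0.00336).

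**Figure D4:**
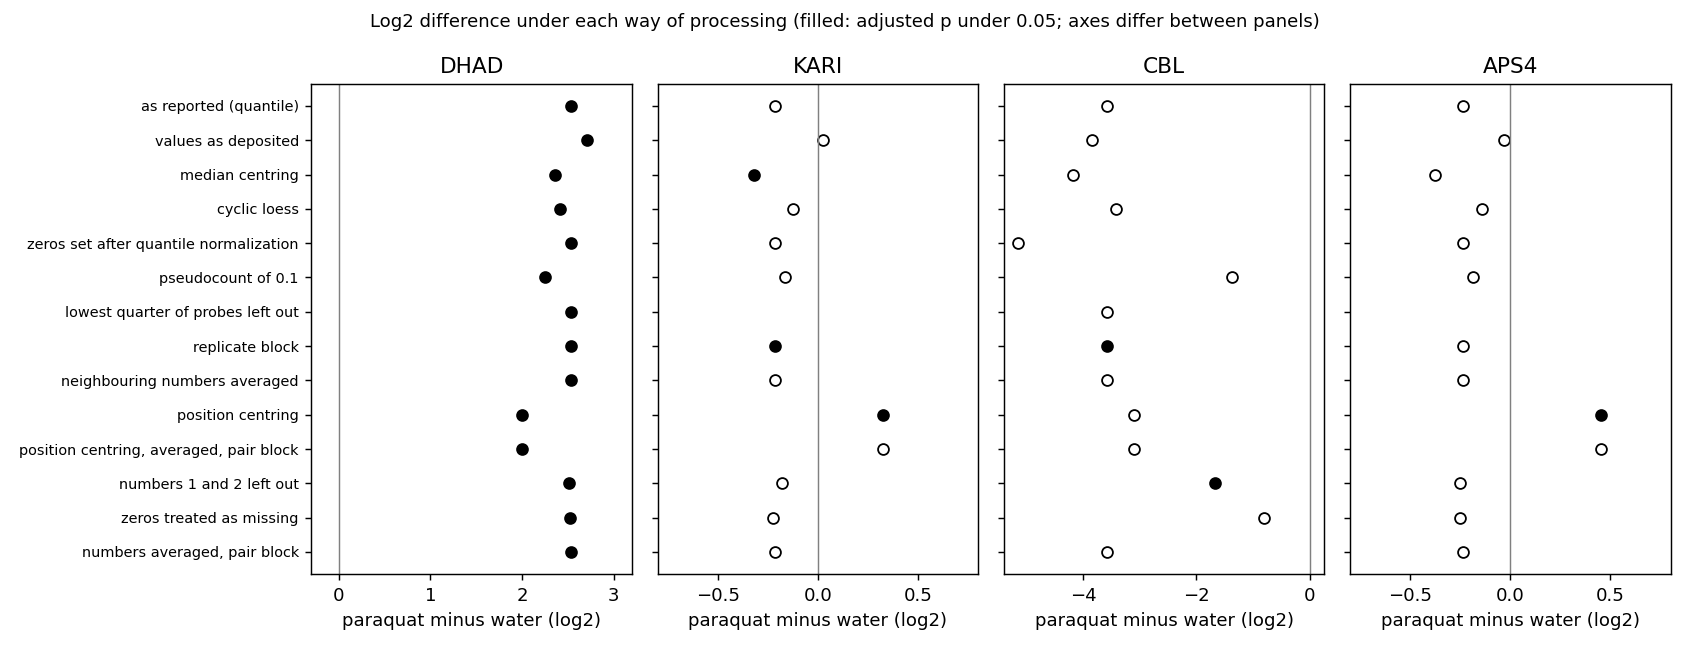
Log2 difference, paraquat minus water, of the 4 genes as reported and under 13 other ways of processing the same values; filled points passed the threshold of 0.05 after adjustment, and the horizontal axes differ. DHAD is filled throughout, between 2.002 and 2.71, KARI and APS4 lie on both sides of 0, and CBL runs from -5.14 to -0.80.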

How the data were processed

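The deposited table holds linear array intensities, scaled by the authors to a reference that stays unknown; scanner, background correction and array build are not given in the sources used here, so no coordinates or sequences are given. Column medians lay between 0.563 and 0.635 under paraquat and between 0.443 and 0.491 under water, and 108 to 148 probes per column are listed at 0. Each zero was replaced by the smallest positive value in its column, columns were quantile normalized and log2 was taken. All 3439 probes were fitted with limma 3.58.1 (R 4.3.3; lmFit, eBayes; two-sided tests) over 12 samples, with no block. The fit was tested on simulated data. Arrays have no read depth; precision is limited by the number of samples. Probes were named through the platform annotation and RefSeq (TAIR10.1).

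Samples of equal number deviated together (correlations 0.337 to 0.505 over 3186 probes without zeros). They were treated as pairs where stated, which comes from the data, not the labels. Samples of unequal number were not compared in this way, so whether each number marks a pair of its own was not tested. Named are the 4 genes, every listed pathway gene with a probe of its own, and per gene the 3 probes with 1 gene most like it by each of 2 correlations. The 4 genes, the lists and the alternatives were chosen with earlier results of these data known. Figures were drawn with matplotlib 3.10.9.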

Additional observations from a re-analysis of the deposited data

Results flagged for a closer look

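Dixon's test at the 95% level picked out an extreme sample in 2 of the 14 sets of 6 values examined, where chance gives about 0.7. Water sample 2 of CBL had a normalized log2 value of -4.43, against -1.50 in the next lowest water sample. Water sample 3 of HISN4 had -5.44, against -1.96 in the next lowest.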

How the results depend on the processing

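DHAD passed in the same direction under each of the 25 alternatives run, with log2 differences of 2.002 to 2.71 and adjusted p up to 0.0212. KARI reversed with the values as deposited (0.024), with position centring (0.33) and with position centring, averaging of neighbouring numbers and the pair as a block (0.33), and passed with median centring (-0.32) and with the sample number as a replicate block (-0.21, adjusted p = 0.0452). APS4 reversed with position centring (0.45), also with averaging and the pair block. CBL passed with the replicate block (-3.57) and without numbers 1 and 2 (-1.67), but not with neighbouring numbers averaged (adjusted p = 0.326) or averaged with the pair as a block (adjusted p = 0.127); KARI did not pass in these 2 fits either (adjusted p = 0.382 and 0.24). Leaving out 1 sample gave -0.27 to -0.16 for KARI, -4.25 to -2.43 for CBL and -0.35 to -0.13 for APS4, none past the threshold. The difference between DHAD and KARI no longer passed where fewer samples bound the exact test: with neighbouring numbers averaged (2.75, p = 0.1; exact permutation test), also with the pair block (2.75, p = 0.25), and with position centring added (1.68, p = 0.25). That between CBL and APS4 passed with the replicate block (-3.34) and without numbers 1 and 2 (-1.42), and ran from -4.01 to -2.20 with 1 sample left out. With neighbouring numbers averaged it did not pass (-3.34, p = 0.4, exact permutation test). The count of all probes changed, 1805 (826 higher, 979 lower), became 1160 (492 higher) with neighbouring numbers averaged, 541 higher with the pair block added, and 926 (418 higher, 508 lower) with position centring as well. Shares of higher among changed probes were 45.8% as reported and 60.1% with the values as deposited, which move the median of all probes to 0.19; median centring moves it to -0.16. List counts moved by the genes already named: 1 branched-chain gene lower with median centring or the replicate block and 2 higher with position centring; 1 sulfur gene lower with the replicate block or without numbers 1 and 2 and 1 higher with position centring; of the other amino acid genes, 1 higher with position centring, and 0 to 1 lower with 1 sample left out. AT3G53580 (DAPE), a dim probe, reversed with the values as deposited (-0.18), median centring (-0.52), the pseudocount (-0.083) and zeros as missing (-0.040), and ran from -0.54 to 0.70 with 1 sample left out. AT5G10920 ran from -0.00058 to 0.25. The replicate block changed no other call among the 4 genes and the 3 other listed genes. Leaving out the dimmest 25% of probes removed KARI and APS4. Without numbers 1 and 2, zeros as missing, and averaging with the pair block alone were chosen after seeing the data.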
